A study of Mus musculus with 18 samples.

Results

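Cholesterol synthesis and its control were followed in nascent RNA through 7 genes named by symbol, Idi1, Fdft1, Sqle, Lss, Srebf2, Insig1 and Hmgcs1, of which 6 had a matched row among the 54232 rows of the deposited count table. Hmgcs1 was not analysed here. Cells make cholesterol from acetyl-CoA by way of mevalonate and squalene, and take it up from lipoproteins. The transcription factor SREBP2, encoded by Srebf2, turns on the enzymes of the route and its own gene when sterols in the endoplasmic reticulum are low, whereas INSIG1 holds the SREBP precursor in the endoplasmic reticulum when sterols are plentiful. Insig1 is itself a target of SREBP2. Red cell precursors need cholesterol for the membranes of dividing cells and of the finished red cell.

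The cells came from fetal livers of C57BL/6 mouse embryos at stage e12.5-e13.5, with no genetic change or drug in any group. Cells were sorted on Ter119, an antigen of maturing red cells, and on CD71, the receptor that takes up transferrin, which gave 5 lineage-negative populations. S0-Low had no Ter119 and little or no CD71 (CD71 low in its titles, CD71- in its listed markers), S0-Medium had medium CD71 and no Ter119, S1 had high CD71 and no Ter119, S2 had high CD71 and medium Ter119, and S3 was high for both. The study takes S0-Low as stem cells and the earliest erythroid progenitors, S0-Medium and S1 as earlier and later erythroid colony formers, and S2 and S3 as erythroblasts in terminal maturation. Lin+ held the cells that carried a lineage marker. All cells were rested for 6 h after sorting in a medium with fetal calf serum, and were given 500 µM 4-thiouridine for 45 min so that newly made RNA could be pulled out and sequenced (4sU-seq). Each of the 6 populations had 3 libraries, 18 in all, and no source says whether the replicates were separate litters, so that p-values measure only the spread between these libraries.

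Library totals ran from 9452476 counts, in S0-Low replicate 3, to 40567976. The summed normalized counts of 8 erythroid markers ran from 18801 to 44161 in S0-Low and from 797187 to 1400622 in S3. In Lin+, which the labels call erythroblasts as well, the same sum was 9448 to 11286, below every erythroid library. The sum of 8 neutrophil and monocyte markers was 13468 to 27275 in S0-Low, 0 to 50.5 in S3 and 95297 to 181706 in Lin+, so the erythroid label was not borne out in Lin+. The lineage antibodies of the sort included CD11b and Ly-6G/6C, which stain neutrophils and monocytes, and would remove stained cells from S0-Low. In such bulk libraries fewer cells of a type and less RNA per cell cannot be told apart, and the source of these transcripts in S0-Low and their part in the results were not tested.

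In RefSeq (GRCm38.p6), Idi1 lies on chromosome 13 from 8885606 to 8892396, Fdft1 on chromosome 14 from 63145150 to 63181687, and Sqle on chromosome 15 from 59315092 to 59331193. Lss lies on chromosome 10 from 76531565 to 76557139, Srebf2 on chromosome 15 from 82147269 to 82205379, and Insig1 on chromosome 5 from 28071412 to 28078662. Annotated genes overlap Fdft1 (Ctsb and Gm51283), Lss (4930483K19Rik), Srebf2 (Mir33) and Insig1 (Gm35223), so that reads of an overlapping gene could have been counted with them.

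The promoters of the 4 genes that had an entry are shown because the genes share a regulator. Each is the RefSeq window of 300 bases, 250 before and 50 after the start, on the plus strand of GRCm38.p6. The start used for Lss, at 76531605, lies 40 bases after the start of the gene given above. Capitals mark CCAAT boxes, read as CCAAT or its reverse complement ATTGG, and the E-box CACGTG. The windows are chr13:8885356-8885655 (Idi1), chr10:76531355-76531654 (Lss), chr15:82147019-82147318 (Srebf2) and chr5:28071162-28071461 (Insig1).
Idi1: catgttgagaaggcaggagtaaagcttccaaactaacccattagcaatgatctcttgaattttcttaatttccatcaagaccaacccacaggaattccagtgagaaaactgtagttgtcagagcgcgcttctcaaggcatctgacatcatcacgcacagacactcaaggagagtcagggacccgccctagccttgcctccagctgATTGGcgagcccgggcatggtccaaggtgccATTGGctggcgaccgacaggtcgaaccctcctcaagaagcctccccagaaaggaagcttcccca
Lss: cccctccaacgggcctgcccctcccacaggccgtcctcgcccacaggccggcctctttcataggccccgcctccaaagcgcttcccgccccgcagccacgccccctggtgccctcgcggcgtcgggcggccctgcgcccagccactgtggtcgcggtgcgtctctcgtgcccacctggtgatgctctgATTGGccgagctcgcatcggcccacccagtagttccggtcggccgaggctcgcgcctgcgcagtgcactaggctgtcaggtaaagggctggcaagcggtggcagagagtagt
Srebf2: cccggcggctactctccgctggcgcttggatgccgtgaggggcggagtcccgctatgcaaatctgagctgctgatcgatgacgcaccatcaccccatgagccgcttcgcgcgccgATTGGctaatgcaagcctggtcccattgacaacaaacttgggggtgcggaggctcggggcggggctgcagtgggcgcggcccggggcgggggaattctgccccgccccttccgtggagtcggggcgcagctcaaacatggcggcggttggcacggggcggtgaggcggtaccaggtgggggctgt
Insig1: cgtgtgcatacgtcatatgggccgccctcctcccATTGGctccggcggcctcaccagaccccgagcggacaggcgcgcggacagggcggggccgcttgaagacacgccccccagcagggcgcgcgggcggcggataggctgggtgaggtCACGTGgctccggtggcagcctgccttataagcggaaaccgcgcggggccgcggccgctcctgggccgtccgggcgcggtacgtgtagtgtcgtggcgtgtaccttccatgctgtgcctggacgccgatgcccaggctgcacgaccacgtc

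All 4 windows held a CCAAT box on either strand, with 2 matches in Idi1 and 1 each in Lss, Srebf2 and Insig1, against 37.4% of the 32851 windows in the table. A GC box (GGGCGG or CCGCCC) also lay in all 4, with 5 matches in Srebf2, 3 in Insig1, 2 in Lss and 1 in Idi1, against 35.7% of all windows. The E-box was found in Insig1 alone of the 4, and in 7.15% of all windows. None of the 4 held the exact letters CACCCCAC or GTGGGGTG, a core of the sterol regulatory element found in 2.87% of all windows, or the GATA motif AGATAA or TTATCT, found in 11.2%. Near matches, such as caccccat in the Srebf2 window, were not counted. These are matches of letters in a short window and no measure of binding.

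The enzymes are taken in the order of the route. Levels are normalized counts, counts scaled to a library of mean effective size by TMM, and are compared only within a gene because they were not divided by length. Idi1 encodes isopentenyl diphosphate isomerase, which interconverts both isoprenoid building blocks. Its normalized counts in replicates 1, 2 and 3 were 1710, 1169 and 794 in S0-Low and 1494, 1319 and 380 in S0-Medium. In S1 they were 3888, 1765 and 837, in S2 4534, 1924 and 452, and in S3 2810, 1458 and 607. In Lin+ they were 2884, 668 and 1000. All 6 populations overlapped, and replicate 3 was the lowest library in each erythroid population.

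Fdft1 encodes squalene synthase, the first enzyme committed to sterols. It had 4984, 5043 and 3164 normalized counts in S0-Low, 4562, 4731 and 2700 in S0-Medium and 14279, 6753 and 4003 in S1. The values were 13611, 11479 and 7659 in S2, 19537, 16940 and 10863 in S3 and 7019, 2989 and 3663 in Lin+. Every S2 and S3 library of Fdft1 lay above every S0-Low, S0-Medium and Lin+ library, while S2 and S3 overlapped each other.

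Sqle encodes squalene epoxidase, which oxidizes squalene in a rate-limiting step. It had 3949, 4889 and 1379 normalized counts in S0-Low, 3568, 5010 and 1779 in S0-Medium and 11145, 6497 and 2382 in S1. The values were 10537, 9469 and 3852 in S2, 6271, 7650 and 2072 in S3, and 4983, 3058 and 2798 in Lin+. Its mean was highest in S2, at 7953 ± 3591 (SD, n = 3), and the populations overlapped.

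Lss encodes lanosterol synthase, which folds the oxidized squalene chain into the first sterol. It had 3812, 3292 and 1148 normalized counts in S0-Low, 3271, 3053 and 1379 in S0-Medium and 8454, 3916 and 1262 in S1. The values were 5896, 4246 and 926 in S2, 2463, 1769 and 31.3 in S3, and 4767, 1730 and 1651 in Lin+. The S3 replicate 3 value rested on 17 counts, and S3 had the lowest Lss level of the 5 erythroid populations in each replicate.

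Srebf2 had 10173, 7778 and 5323 normalized counts in S0-Low, 8587, 5924 and 6400 in S0-Medium and 11573, 7090 and 8259 in S1. The values were 11585, 11068 and 10935 in S2, 20990, 27804 and 11247 in S3, and 12395, 6453 and 8021 in Lin+. The S2 libraries lay close together, whereas those of S3 spread over a wide range, replicate 3 standing near the S2 level.

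Insig1 had 3002, 4053 and 4157 normalized counts in S0-Low, 2479, 4145 and 2154 in S0-Medium and 8622, 5911 and 4063 in S1. The values were 7858, 7235 and 6026 in S2, 6884, 7165 and 6140 in S3, and 3248, 2494 and 3574 in Lin+. Every S2 and S3 library lay above every S0-Low, S0-Medium and Lin+ library, and the S2 and S3 means were nearly level, at 7040 ± 931 and 6730 ± 530 (SD, n = 3).

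**Figure D1:**
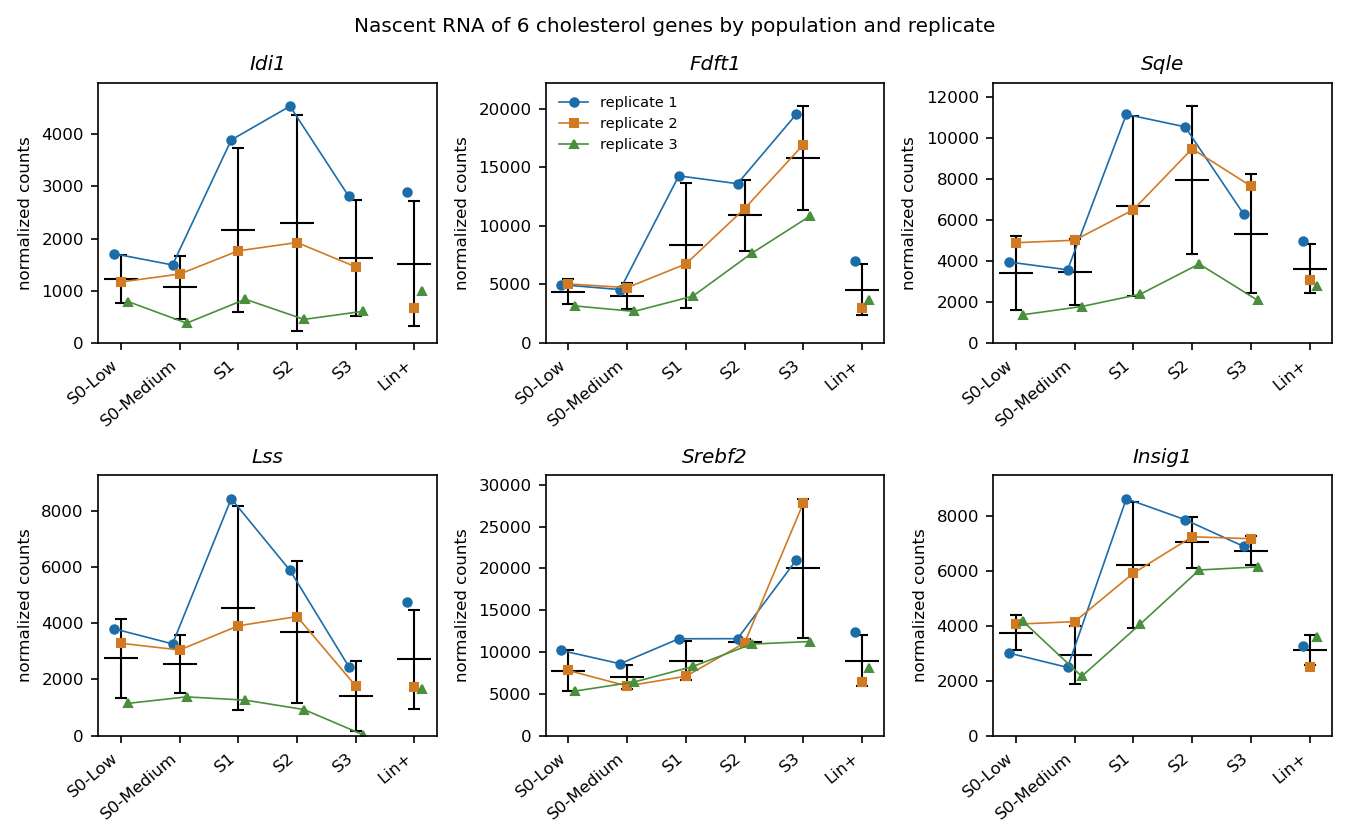
Normalized counts (linear axis from 0) of 6 cholesterol genes in the 5 erythroid populations, joined within each replicate, and in Lin+. Black bars are the mean and SD of 3 libraries. Fdft1 and Srebf2 had their highest means in S3, Insig1, Sqle and Idi1 in S2, and Lss in S1, where replicate 1 stood above the others.

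S3 was compared with S0-Low to ask how nascent RNA differed between the ends of the erythroid series. Fdft1 and Srebf2 rose. Fdft1 went from 4397 ± 1069 to 15780 ± 4452 normalized counts (SD, n = 3), a log2 fold change of 1.84 (SE 0.43, adjusted p = 0.00443, edgeR quasi-likelihood test with Benjamini-Hochberg adjustment). Srebf2 went from 7758 ± 2425 to 20014 ± 8321, a log2 fold change of 1.37 (SE 0.35, adjusted p = 0.00748, edgeR). With TMM scaling both were higher in 3 of 3 replicates, though the numbers do not pair S3 with S0-Low, and neither gene's groups overlapped. By library totals the Srebf2 groups overlapped. This gene had 6118 of 30056070 counts in S3 replicate 3, a smaller share than 2004 of 9452476 in S0-Low replicate 3.

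With TMM scaling the regulator Insig1 was also higher in 3 of 3 replicates without overlap, by 0.85 on the log2 scale (SE 0.32), but missed the threshold (adjusted p = 0.0521, edgeR). It was called in 4 of 17 alternative analyses, with the replicate number as a block (adjusted p = 0.0256), with all 18 libraries in the fit (0.0397), without replicate 3 of any population (0.0264), and with the block and without replicate 3 (0.0248, edgeR). With library totals its log2 fold change was 0.0032 (adjusted p = 0.997, edgeR). Sqle had a log2 fold change of 0.64 (SE 0.62) and Idi1 of 0.40 (SE 0.76), with adjusted p of 0.429 and 0.7 in edgeR. Lss had −0.96 (SE 0.98, adjusted p = 0.462, edgeR). It was lower in S3 than in the same-numbered S0-Low library by 1.55, 1.86 and 36.7 times, although the numbers do not pair these populations.

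Thus 2 of the 6 genes were called higher and 0 lower, against 13.4% higher and 22.4% lower of the 16555 genes tested. With TMM scaling, groups that did not overlap, with S3 higher, were found for 3 of the 6 genes and for 16.6% of all genes. By library totals the groups of Insig1 overlapped, as did those of Srebf2. The median log2 fold change of the 6 genes was 0.75, and of all genes −0.54. Scaling by library totals in place of TMM moved the median of the 6 genes to −0.058, that of all genes to −1.36 and the calls from 2220 higher and 3712 lower to 1156 and 6228, and called none of the 6 (adjusted p = 0.0546 for Fdft1 and 0.177 for Srebf2, edgeR). Measured against the median of all genes, Fdft1 was 2.38 higher with TMM and 2.41 with library totals, and Srebf2 1.91 and 1.94. A change of scaling shifts all genes by nearly the same amount, so these differences could hardly move. They therefore cannot show which scaling is right. With only the 6 libraries compared in the fit, Fdft1 alone was called, and Srebf2 had an adjusted p of 0.0589 (edgeR).

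**Figure D2:**
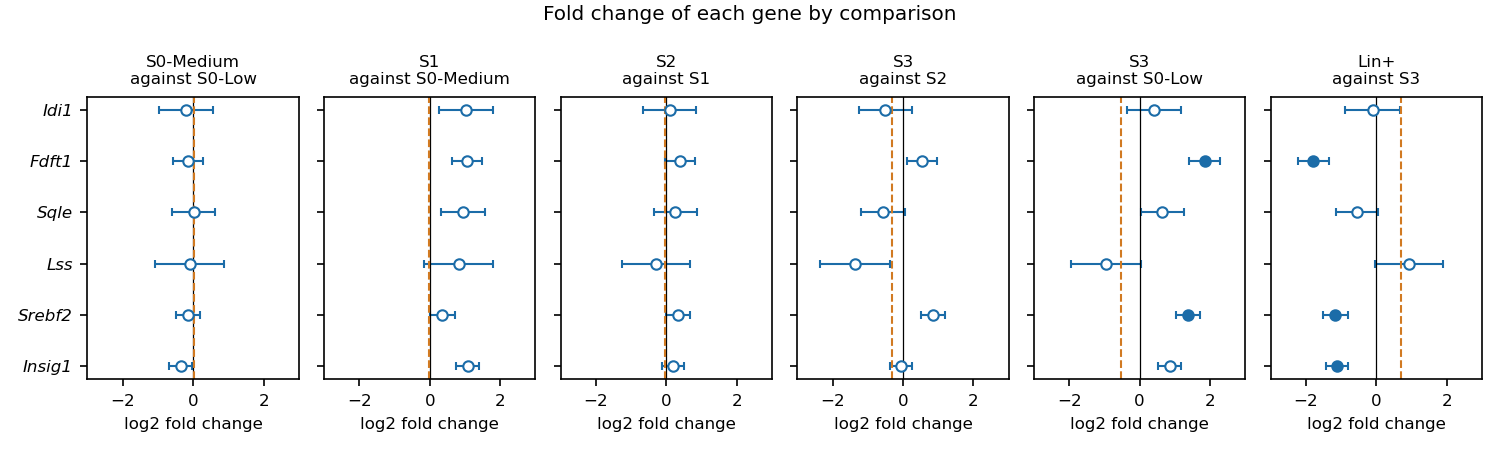
Log2 fold change of each gene in 6 comparisons, with bars of 1 SE from edgeR. Filled points have an adjusted p under 0.05, and the dashed line is the median of all genes tested. Filled points stand at 1.84 and 1.37 in S3 against S0-Low and at −1.79, −1.16 and −1.12 in Lin+ against S3.

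The steps between neighbouring populations were compared as well. From S0-Low to S0-Medium the 6 genes had log2 fold changes between −0.36 and 0.02. From S0-Medium to S1 all 6 values were positive, from 0.36 for Srebf2 to 1.08 for Insig1, with a median of 0.98 against −0.02 over all genes. None of the 6 was called in this step. These values rested largely on S1 replicate 1, without which the median was 0.27, with Insig1 at 0.72, Fdft1 at 0.37, Sqle at 0.31, Idi1 at 0.23, Srebf2 at 0.081 and Lss at −0.044. Without S0-Medium replicate 3 the median was 0.57. At an unadjusted p under 0.05, Fdft1 and Insig1 passed in the higher direction, as did 1.68% of all genes, but neither did without S1 replicate 1 (unadjusted p = 0.356 and 0.0538, edgeR). From S1 to S2 the values lay between −0.30 and 0.39.

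In these first 3 steps edgeR called 0.0% of the 16555 genes in either direction at an adjusted p under 0.05. Unadjusted, 295 genes were higher and 244 lower in the first, 278 and 857 in the second, and 166 and 501 in the third. DESeq2 called 31 genes higher and 24 lower in the first, 31 and 375 in the second, and 5 and 154 in the third, with none of the 6 among them.

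The step into S1 was largest in replicate 1. There, S1 exceeded S0-Medium by 3.48 times for Insig1, 3.13 for Fdft1, 3.12 for Sqle, 2.60 for Idi1, 2.58 for Lss and 1.35 for Srebf2. In replicate 2 the same ratios lay between 1.20 and 1.43, and in replicate 3 between 0.916 for Lss and 2.20 for Idi1. Same-numbered libraries deviated together in this step, and with the replicate number as a block the lowest adjusted p of the 6 was 0.113, for Fdft1 (edgeR), while 28 genes were called higher and 29 lower.

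From S2 to S3 none of the 6 genes passed the test, and their values lay on both sides of 0. Srebf2 had a log2 fold change of 0.84 (SE 0.35) and Fdft1 of 0.54 (SE 0.42), whereas Lss had −1.37 (SE 0.99), Sqle −0.57 (SE 0.62) and Idi1 −0.50 (SE 0.76), and Insig1 stood at −0.06 (SE 0.32). Within same-numbered libraries, S3 over S2 was 1.44, 1.48 and 1.42 for Fdft1 and 1.81, 2.51 and 1.03 for Srebf2. It was 0.418, 0.417 and 0.034 for Lss and 0.595, 0.808 and 0.538 for Sqle. Idi1 and Insig1 differed in direction between replicates. Adjusted p was 0.133 for Srebf2 and 0.395 for Lss (edgeR), while 9.35% of all genes were called in either direction. Unadjusted, Srebf2 alone passed in the higher direction, as did 8.96% of all genes, and DESeq2 called Srebf2 (adjusted p = 0.0279) with 8.5% of all genes higher. Without replicate 3 of any population, a choice made after seeing the data, edgeR called Srebf2 higher (adjusted p = 0.0299) and Lss lower (adjusted p = 0.0355) in this step, and calls over all genes rose to 7.33% higher and 11.6% lower. With the block as well, the values were 0.0165 and 0.00824, against 9.02% of all genes higher and 13.0% lower. Lss was then also called lower in S3 than in S0-Low (adjusted p = 0.0379, edgeR), as were 24.3% of all genes.

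Fdft1 and Lss can be compared inside each library, where no scaling between libraries enters. The ratio of Fdft1 to Lss counts was 1.31, 1.53 and 2.76 in S0-Low and 1.39, 1.55 and 1.96 in S0-Medium. It was 1.69, 1.72 and 3.17 in S1, 2.31, 2.70 and 8.27 in S2, and 7.93, 9.58 and 348 in S3, the last over only 17 Lss counts. In Lin+ it was 1.47, 1.73 and 2.22. In each replicate the ratio was highest in S3 and next highest in S2, although S2 replicate 3 lay above S3 replicate 1.

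The ratio of Fdft1 to Sqle counts was 1.26, 1.03 and 2.29 in S0-Low, 1.29, 1.21 and 1.99 in S2 and 3.12, 2.21 and 5.24 in S3. It was thus also highest in S3 in each replicate. These pairs were chosen after the values were seen, from 5 pairs computed, and carry no test.

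**Figure D3:**
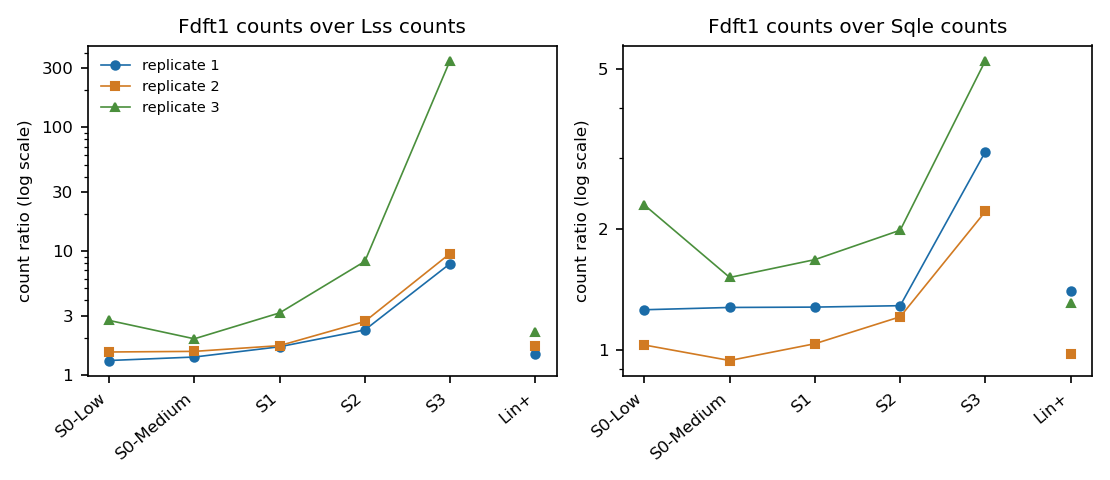
Ratio of Fdft1 to Lss counts (left) and of Fdft1 to Sqle counts (right) in each library, on log axes, joined within each replicate across the erythroid populations. In S3 the ratios were 7.93, 9.58 and 348 on the left and 3.12, 2.21 and 5.24 on the right. The value of 348 rested on 17 Lss counts.

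The replicates set much of the spread of the enzymes. Over the 15 erythroid libraries, the replicate number took 78.2% of the variance of log2 levels for Idi1, 66.1% for Sqle and 52.6% for Lss, against a median of 14.5% over all genes. For Fdft1 the share was 21.8%, for Srebf2 13.9% and for Insig1 7.34%. The population took 75.4% for Insig1, 73.0% for Fdft1 and 69.6% for Srebf2, against a median of 48.1%. Replicate 3 was lowest in each of the 5 erythroid populations for 4 of the 6 genes, Idi1, Fdft1, Sqle and Lss, and for 6.25% of all genes tested. What set replicate 3 apart was not tested.

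Lin+ was next set against both ends of the erythroid series. Against S0-Low, the 6 genes had log2 fold changes between −0.27 for Insig1 and 0.31 for Idi1, and edgeR called none, at an adjusted or an unadjusted p under 0.05, nor did DESeq2, while edgeR called 0.715% of 17755 genes in either direction. Against S3, Lin+ was lower for Fdft1 by a log2 fold change of −1.79 (SE 0.44, adjusted p = 0.00408, edgeR), for Insig1 by −1.12 (SE 0.31, adjusted p = 0.00879, edgeR) and for Srebf2 by −1.16 (SE 0.35, adjusted p = 0.0135, edgeR). With TMM scaling all 3 were lower in Lin+ in 3 of 3 replicates, though the numbers do not pair Lin+ with S3. Fdft1 and Insig1 did not overlap with this scaling, but both overlapped by library totals.

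Sqle (−0.56, SE 0.60), Idi1 (−0.10, SE 0.78) and Lss (0.93, SE 0.96) were not called between Lin+ and S3. The 3 of 6 genes called lower compare with 14.1% of all genes, the 0 called higher with 28.2%, and the 2 of 6 without overlap with 17.3%. The median of the 6 was −0.84, and of all genes 0.69. Library totals moved the median of the 6 to −0.085, that of all genes to 1.47 and the calls from 5005 higher and 2496 lower to 7126 and 1338, and Fdft1 alone was then called (adjusted p = 0.0479, edgeR). Srebf2 lost its call without S3 replicate 2 (adjusted p = 0.0854), Lin+ replicate 2 (0.07) or Lin+ replicate 3 (0.0517, edgeR).

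Across the 18 libraries, Fdft1 followed Insig1 (Pearson r = 0.86) and Srebf2 (r = 0.85), and Sqle followed Idi1 (r = 0.81). Lss had r of 0.68 with Idi1 and 0.64 with Sqle, and of 0.03 with Insig1, 0.03 with Srebf2 and 0.09 with Fdft1. These values describe 18 libraries that fall into 6 populations and 3 replicate numbers, which all genes share. Outside the lipid lists, the genes most like the mean of the 6 were Prpf6 (r = 0.896), a splicing factor, Lrrc8b (r = 0.874), a subunit of volume-regulated anion channels, Trip12 (r = 0.862), a ubiquitin ligase, and Hnrnpd (r = 0.858), an RNA-binding protein, again over the 18 libraries.

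The other lists are read in S3 against S0-Low, where 13.4% of all genes were called higher and 22.4% lower. Markers of other cell types also differed between these populations. Beside the neutrophil and monocyte markers, the summed normalized counts of 8 macrophage markers were 1071 to 1708 in S0-Low and 1.8 to 137 in S3, those of 6 endothelial and stromal markers 2664 to 6136 and 249 to 392, and those of 6 lymphoid markers 236 to 574 and 0 to 34.6. The sums of 6 mast cell and basophil markers (688 to 1098 in S0-Low) and of 8 hepatocyte markers (191 to 290) were 0 in all S3 libraries, whereas 6 megakaryocyte markers overlapped (1041 to 4551 and 586 to 2780). The part of these cell types in the list values was not tested. Of 15 other enzymes of cholesterol synthesis 1 was called higher and 0 lower. Their median was 0.03, and its sign was not stable. It was −0.56 without S3 replicate 1, −0.79 without S3 replicate 2, −0.08 without S0-Low replicate 3 and 0.43 without S3 replicate 3, and −0.74 with library totals and −0.43 with the replicate block. The one called was Lbr, a sterol reductase that is also a receptor of the nuclear lamina, at 8652, 6345 and 6622 normalized counts in S0-Low and 35222, 26852 and 51495 in S3 (log2 fold change 2.39, SE 0.34).

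Of 9 tested genes of SREBP processing and its regulators, 2 were called higher and 3 lower. Rnf145, a ubiquitin ligase, rose with a log2 fold change of 1.52 (SE 0.46), but was not called without S0-Low replicate 1 (adjusted p = 0.0812), S0-Low replicate 2 (0.0717) or S3 replicate 3 (0.0505), or with library totals (0.65, adjusted p = 0.248, edgeR). Scap, the escort that carries SREBP to the Golgi, had 2895, 2405 and 1442 normalized counts in S0-Low and 116, 433 and 31.3 in S3, and fell by 3.53 on the log2 scale. Mbtps2, the site-2 protease that frees SREBP, fell by 2.05 on the log2 scale, and Erlin1 fell by 2.01. Both lost the call without S3 replicate 2 (adjusted p = 0.0903 for Mbtps2 and 0.0864 for Erlin1) or S3 replicate 3 (0.0834 and 0.088, edgeR). Mbtps2 also lost it without S0-Low replicate 3 (0.0769) or replicate 3 of any population (0.107), and Erlin1 without S0-Low replicate 2 (0.0658, edgeR). Rnf139 did not pass the low-count filter and was not tested in this fit.

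Uptake and intracellular transport had 1 gene called higher and 1 lower of 10. Their median was 0.14, but −0.72 with library totals, −0.059 with only the 6 libraries compared and −0.063 without S0-Low replicate 2. Mylip, a ubiquitin ligase that lowers lipoprotein receptors, rose by 3.46 (SE 1.02) on the log2 scale, and lost the call without S0-Low replicate 1 (adjusted p = 0.0677), S0-Low replicate 2 (0.0678) or S3 replicate 3 (0.068, edgeR). Vldlr, a lipoprotein receptor, was at 18.2, 98.9 and 568 normalized counts in S0-Low and at 0 in all S3 libraries, at least 40.1-fold lower against a floor of 3 counts in each library. S0-Low replicate 3 carried this bound, which was 10.3-fold without it.

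Storage and efflux had 2 called higher, the transporter Abcg4 (3.49, SE 0.58) and the sterol receptor Nr1h2 (0.90, SE 0.33), and 3 lower of 6. The median of −3.30 moved to −1.78 without S0-Low replicate 3 and to −5.60 without S3 replicate 2, and was 1.93 over the 2 genes left with the minimum of 10 counts in every compared library. Those lower were the sterol acyltransferase Soat1 and the transporters Abcg1 and Abca1, each at 0 in S3 replicates 1 and 3. In S3 replicate 2 they had 13.0, 13.0 and 11.5 normalized counts. The macrophage, mast cell and endothelial sums given above were lower in S3 as well. Abca1 lost its call without S0-Low replicate 3 (adjusted p = 0.218), S3 replicate 1 (0.0977), S3 replicate 3 (0.104) or replicate 3 of any population (0.231, edgeR). Nr1h2 was called in 6 of 17 alternatives, and with library totals its log2 fold change was 0.06 (adjusted p = 0.898, edgeR). It also lost the call without S0-Low replicate 2 (0.157) or 3 (0.141), or S3 replicate 2 (0.0856) or 3 (0.12, edgeR).

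Non-sterol branches of the mevalonate route had 1 of 10 called higher, the farnesyltransferase subunit Fntb (1.98, SE 0.47), and 1 lower, Nus1 (−1.33, SE 0.48), which serves dolichol synthesis. Nus1 lost the call without S0-Low replicate 1 (adjusted p = 0.0598) or 2 (0.0995), or S3 replicate 1 (0.0903) or 3 (0.107, edgeR). Fatty acid synthesis had 0 called higher and 3 lower of 10. These were Fads2, a desaturase, at −3.54 (SE 0.68), Scd2, also a desaturase, at −2.66 (SE 0.71), and Acly, which supplies acetyl-CoA, at −2.58 (SE 0.54). The median of the 10 was −2.11, against 0.75 for the 6 cholesterol genes and −0.54 for all genes. With library totals the same medians were −2.92, −0.058 and −1.36.

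**Figure D4:**
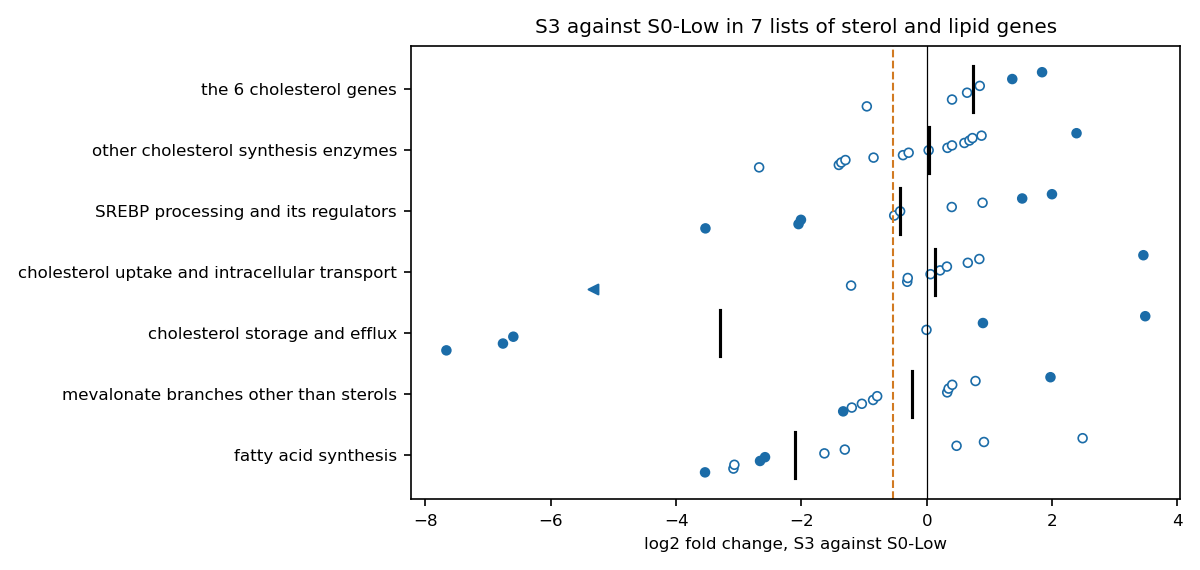
Log2 fold change of S3 against S0-Low for each tested gene of 7 lists (filled, adjusted p under 0.05 in edgeR), with the median of each list as a black bar and that of all genes as a dashed line. The triangle is the bound for Vldlr. With TMM the list medians run from −3.30 for storage and efflux (−5.60 to −1.78 when 1 library was left out) to 0.75 for the 6 cholesterol genes (0.54 to 0.95), and with library totals from −4.24 to −0.058.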

How the data were processed

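Nascent (4sU-labelled) RNA was sequenced from 18 libraries, 3 of each of 6 sorted populations. The authors prepared stranded libraries with 14 PCR cycles and no molecular identifiers, quantified reads with kallisto 0.43.0 against GRCm38 per the submitters' processing notes, and deposited whole-number counts per gene, not normalized or pooled. The transcript set and the handling of introns are not given in the sources used here.

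Samples were grouped by title and sort markers. The 6 cholesterol genes and the other lists were chosen with earlier results of these data known. Counts were fitted in R 4.3.3 with edgeR 4.0.16 (TMM, filterByExpr, quasi-likelihood test, two-sided, Benjamini-Hochberg adjustment over all genes tested) on the 15 erythroid libraries, or on all 18 for Lin+, with population as the only term and an adjusted p under 0.05 as the threshold. SE is the log2 fold change over the root of F. Python 3.11.15, pandas 2.3.3, numpy 2.4.6 and matplotlib 3.10.9 were used for the rest, and correlations and variance shares used log2(CPM + 0.5), computed from the deposited counts. The procedure was tested on simulated data.

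Named genes were the members, the called genes of each list (at most 4 in each direction, by size of change) and the 5 genes most like the members' mean. Of the genes so named, 1 of a list and 1 of the 5 are not reported here. The ratios of counts and the replicate 3 comparison were chosen after their values were seen. Symbols were matched through the reference tables, 2 by older symbols. Deviations of same-numbered libraries from their population means correlated at 0.347, 0.388 and 0.257 for S0-Medium with S0-Low, at 0.462, 0.546 and 0.535 for S1 with S0-Medium, at 0.460, 0.467 and 0.547 for S2 with S1, at 0.170, 0.256 and 0.313 for S3 with S2, and at 0.192, 0.226 and 0.302 for Lin+ with S0-Low, so the numbers were taken to pair those libraries. The alternatives were DESeq2 1.42.0, other scalings, filters and fits, the replicate block, and leaving out libraries. Promoter sequences and positions came from RefSeq GRCm38.p6, where 4 of the 6 genes had a promoter window. Intervals from counting were not used because PCR reads are not independent molecules.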

Additional observations from a re-analysis of the deposited data

How the results depend on the processing

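Fdft1 kept its direction in S3 against S0-Low under all 17 alternatives and was called in 16, and Srebf2 in 15 of 17. In Lin+ against S3, Fdft1 was called in 16 of 16 alternatives, Insig1 in 14 and Srebf2 in 10. Of 702 values of the 6 genes in 7 comparisons under alternatives, 616 kept direction and side of the threshold, 10 gained a call, 11 lost one and 65 turned direction. The cause of these changes was not tested. The depth of S0-Low replicate 3, the spread between replicates and the scaling limit what the values can show, and calls need differences well above that spread.

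Of the 6 cholesterol genes, in S3 against S0-Low library totals left 0 called higher and the fit on the 6 libraries compared left 1, where TMM on the 15 libraries called 2. Over all genes, 6.98%, 10.5% and 13.4% were called higher in these 3 fits, and 15.9% with the replicate block. The replicate block called 3, with Insig1 at an adjusted p of 0.0256 (edgeR), although the numbers do not pair S3 with S0-Low (0.081, 0.131 and 0.105) or Lin+ with S3 (0.091, 0.121 and 0.160). In S1 against S0-Medium the block, which the numbers pair, called 28 genes higher and 29 lower, against none without it in the same fit. Without the block, all 18 libraries in the fit called 4 and 121, no low-count filter 82 and 245, and DESeq2 31 and 375. With the replicate block and without replicate 3 of every population (added after seeing the data), 1 was called lower in S3 against S0-Low, and 1 higher and 1 lower in S3 against S2. Without the block, leaving out replicate 3 of any population also gave 1 higher and 1 lower in S3 against S2, and DESeq2 gave 1 higher. In Lin+ against S3, library totals and the minimum of 10 counts in every compared library each left 1 called lower of 3. Over all genes, 7.54% and 20.9% were called lower in these fits, against 14.1% before. Leaving out 1 library at a time gave 2 called higher in S3 against S0-Low each time and 2 to 3 called lower in Lin+ against S3. Over all genes, 9% to 12.3% were called higher in the former and 10.6% to 13% lower in the latter.

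In the other lists in S3 against S0-Low, library totals called 1 higher and 5 lower for SREBP processing (2 and 3 before), 1 higher for storage and efflux (2), 2 lower for uptake (1), 6 lower for fatty acid synthesis (3), 4 lower for non-sterol branches (1) and 2 lower for the other synthesis enzymes (0). Over all genes, library totals called 6.98% higher and 37.6% lower, against 13.4% and 22.4% before. The fit on the 6 libraries called 1 lower for SREBP processing, 1 higher and 2 lower for storage (3 lower before) and 0 lower for non-sterol branches. The minimum of 10 counts called 1 higher and 0 lower for storage, 0 lower for uptake, 4 lower for fatty acid synthesis and 2 lower for non-sterol branches. No low-count filter gave 1 higher for storage, 1 higher and 6 lower for fatty acid synthesis and 1 lower for the other enzymes, and RLE size factors 1 higher for storage and 4 lower for fatty acid synthesis, as did all 18 libraries for the latter. The replicate block gave 2 higher for uptake, 2 lower for storage, 2 higher and 6 lower for fatty acid synthesis, 2 lower for non-sterol branches and 2 lower for the other enzymes. Leaving out replicate 3 of any population gave 2 lower for SREBP processing, 1 higher and 2 lower for storage, 1 higher and 6 lower for fatty acid synthesis, 2 lower for non-sterol branches and 2 lower for the other enzymes, and with the block as well it gave the same values except 3 lower for SREBP processing and 3 higher for the other enzymes. DESeq2 gave 0 higher for uptake, where Mylip had no adjusted p, 5 lower for fatty acid synthesis and 1 lower for the other enzymes. Over all genes, the 6 libraries called 10.5% higher and 18.1% lower, and the minimum of 10 counts 19.2% and 19.3%. No low-count filter called 7.36% and 14.3%, RLE size factors 12.1% and 24.8%, and all 18 libraries 13.4% and 24.4%. The replicate block called 15.9% and 26.4%, and no replicate 3 of any population 13.7% and 24%. Both together called 15.4% and 24.3%, and DESeq2 15.4% and 30.1%. Leaving out 1 library at a time gave 1 to 2 higher and 1 to 3 lower for SREBP processing, 0 to 1 higher and 1 to 2 lower for uptake, 1 to 2 higher and 2 to 3 lower for storage and efflux, 1 to 2 higher and 0 to 2 lower for non-sterol branches, 0 to 1 higher and 3 to 5 lower for fatty acid synthesis, and 1 higher and 0 to 1 lower for the other enzymes. Over all genes it gave 9% to 12.3% higher and 14.7% to 21.8% lower. Of the list genes named, Lbr, Scap, Abcg4, Fntb, Fads2, Scd2 and Acly were called in 17 of 17 alternatives, and Vldlr, Soat1 and Abcg1 in 16 of 16. Rnf145 and Erlin1 were called in 13 of 17, Mbtps2 and Nus1 in 12 of 17, Mylip in 13 of 16, Abca1 in 9 of 16 and Nr1h2 in 6 of 17. The other list medians that turned sign were, for the other enzymes, −0.13 with DESeq2 and with RLE size factors, −0.17 with the 6 libraries and −0.037 with no low-count filter, and for uptake −0.0075 with the minimum of 10 counts.

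The values that turned direction, none of them called, are log2 fold changes. With library totals they were −0.12 for Sqle and −0.34 for Idi1 in S3 against S0-Low, 0.16 for Sqle and 0.57 for Idi1 in Lin+ against S3, and −0.012 for Fdft1 in Lin+ against S0-Low. Idi1 in Lin+ against S3 was 0.10 with DESeq2, with RLE size factors and with the 6 libraries, 0.27 with the minimum of 10 counts and 0.016 with the replicate block. Insig1 in S3 against S2 was 0.055 with DESeq2 and RLE size factors. Lss in Lin+ against S0-Low was 0.071 with DESeq2, 0.069 with RLE size factors, 0.024 with the minimum of 10 counts, 0.035 with no low-count filter and 0.10 with the replicate block. Without replicate 3 of any population, Lin+ against S0-Low was −0.027 for Fdft1 and −0.16 for Sqle, and with the block as well −0.11 and −0.17. Sqle in S0-Medium against S0-Low was −0.015 with RLE size factors, −0.018 with library totals, −0.014 with DESeq2, −0.041 without replicate 3 of any population and −0.042 with the block as well, where Idi1 was 0.020. With the replicate block, Lss in S0-Medium against S0-Low was 0.043 and Idi1 in S2 against S1 −0.11. Leaving out 1 library at a time, the ranges of those that turned were −0.38 to 0.063 for Srebf2 in S0-Medium against S0-Low, −0.56 to 0.18 for Idi1 in S0-Medium against S0-Low, −0.48 to 0.19 for Lss in S0-Medium against S0-Low, −0.70 to 0.29 for Lss in Lin+ against S0-Low, −0.37 to 0.34 for Sqle in S0-Medium against S0-Low, −0.29 to 0.44 for Sqle in Lin+ against S0-Low, −0.10 to 0.45 for Srebf2 in Lin+ against S0-Low, −0.40 to 0.28 for Fdft1 in Lin+ against S0-Low, −0.34 to 0.054 for Fdft1 in S0-Medium against S0-Low, −0.044 to 1.27 for Lss in S1 against S0-Medium, −0.81 to 0.49 for Lss in S2 against S1, −0.87 to 0.80 for Idi1 in S2 against S1, −0.15 to 0.82 for Sqle in S2 against S1, −0.047 to 0.47 for Insig1 in S2 against S1, −1.17 to 0.44 for Idi1 in S3 against S2, −0.17 to 0.014 for Insig1 in S3 against S2, −0.26 to 0.79 for Idi1 in S3 against S0-Low, −0.95 to 0.54 for Idi1 in Lin+ against S3 and −0.56 to 0.66 for Idi1 in Lin+ against S0-Low.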
